A study of Danio rerio with 6 samples.

Results

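Axon guidance ligands and receptors were followed through zebrafish (*Danio rerio*) organogenesis in whole embryos of the AB wild-type strain, collected untreated at 10 (T1), 24 (T2) and 36 (T3) hours post fertilization (hpf). RNA depleted of ribosomal RNA was sequenced in 6 libraries, 2 per stage. The embryos of a stage had been divided at random into 2 pools, so every library is a pool of many embryos, the 2 libraries of a stage share their collection, and the *p* values below measure only the spread between such pools. The members were taken by gene symbol: netrins and netrin-G ligands, DCC and UNC5 receptors, Slits, Robo receptors, semaphorins, neuropilins, plexins, ephrins and Eph receptors. The symbols gave 100 of 30111 genes. Of these, *unc50* matched by its letters alone and does not encode an UNC5 receptor, so it was set aside (1.19 and 1.22 RPKM at T1, 1.18 and 0.991 at T2 and then 0.657 and 0.860 at T3, called in no comparison), which left 99 axon guidance genes.

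Growing axons are steered by cues that attract or repel the growth cone at their tip. Netrins and Slits are secreted, largely by cells of the midline, and are read by DCC and UNC5 and by Robo receptors. Semaphorins are read by plexins, for many of the secreted ones together with neuropilins, and ephrins by Eph receptors on contact between neighbouring cells. None of these systems is restricted to neurons: Eph receptors and ephrins also form boundaries between somites and between hindbrain segments, and plexins, neuropilins, *robo4*, *unc5b* and ephrin-B2 act in blood vessels. The teleost genome duplication left many of the genes as an a and a b copy.

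Levels are given as RPKM (the reads of a gene divided by its exon length and by the library total), with the replicate 1 library of a stage before its replicate 2. Fold changes are differences of mean log2(RPKM + 0.5) with their standard errors (SE), the later stage over the earlier. A gene was called higher or lower when limma gave a Benjamini-Hochberg adjusted *p* under 0.05 over all mRNA genes tested and the log2 fold change exceeded 1 in size. An exact permutation test of 2 libraries against 2 cannot go below *p* = 0.333 and was therefore not used. In whole embryos, fewer cells of a type and less RNA per cell cannot be told apart.

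The libraries held 43611332 to 51846237 reads in genes. The stage labels were checked against marker lists. At T3 against T1, 14 of 17 neuron markers were called higher, against 17.2% of all genes tested. Of 8 gastrula and tailbud markers, 7 of them tested, 5 were called lower, against 8.76% of all genes tested. The T1 libraries stood apart from each other. In T1 replicate 1, 16 of 17 neuron markers and 10 of 10 endothelial markers were higher than in replicate 2, and 0 of 8 gastrula and tailbud markers were. The remaining lists were mixed, with 5 of 11 neural progenitor, 4 of 6 neural crest, 2 of 4 epidermis and 3 of 8 somite and muscle markers higher. The median log2 level of all expressed mRNA genes also lay higher in replicate 1, at -0.06 from the mean of the libraries, against -0.18 in replicate 2. Neuron markers summed to 114.6 and 80.8 RPKM in the T1 libraries, endothelial markers to 26.2 and 15.1, and gastrula and tailbud markers to 157.3 and 226.9. In the later stages neuron markers summed to 423.6 and 474.0 RPKM at T2 and 933.5 and 881.4 at T3.

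Taken as a set, the 99 genes kept the same summed RPKM while the makeup of that sum changed. RPKM takes the library total as fixed, and the sum was not computed on another scale. The sum was 650.9 and 683.3 RPKM at T1, 671.6 and 656.0 at T2 and then 651.5 and 671.2 at T3, so the 3 stages overlapped. Above 1 RPKM in both libraries of a stage lay 61 genes at 10 hpf, 82 at 24 hpf and 85 at 36 hpf. The mean was highest at T1 for 33 genes, at T2 for 16 and at T3 for 50. Within the sum, secreted semaphorins, Slits and netrins took a growing part, while ephrin-B ligands, EphB receptors and neuropilins took a smaller part after T1.

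**Figure D1:**
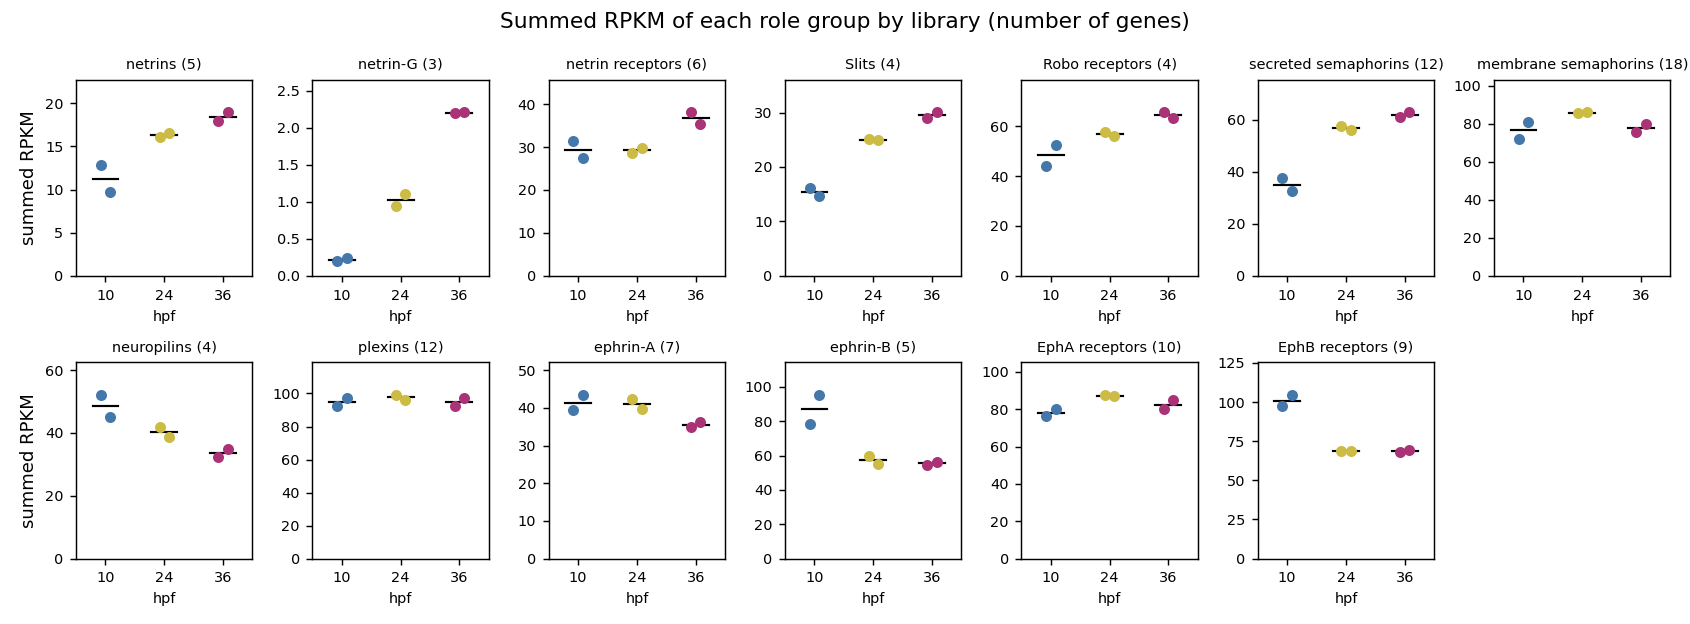
Summed RPKM of the genes of each role group (vertical axes, each starting at 0, number of genes in parentheses) at 10, 24 and 36 hpf; points are libraries and bars the mean of the 2 libraries of a stage. Slits summed to 28.9 and 30.0 RPKM at 36 hpf and 16.1 and 14.7 at 10 hpf, and EphB receptors to 67.8 and 69.1 at 36 hpf and 97.4 and 104.4 at 10 hpf.

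Most called changes lay between T1 and T2. Of 98 genes tested (*epha6*, at 0.0149 to 0.175 RPKM, fell below the filter), 27 were called higher and 4 lower at T2 than at T1, against 12.8% higher and 3.45% lower among all 23028 genes tested and 16.3% in either direction. Between T3 and T2, 2 of 98 were called higher and 0 lower, where 4.03% and 2.11% of 23161 genes were, 6.14% in all. The count of 0 lower was also 0 under limma voom on recovered reads, and at an unadjusted *p* under 0.05 with the same fold. The largest fall, -0.71, lay under the fold threshold, so no *p* cutoff could have changed the latter. Without the fold threshold, 30 genes were higher and 24 lower at an adjusted *p* under 0.05. At T3 against T1, 33 were called higher and 8 lower, against 17.2% and 8.76% of 23133 genes, 25.9% in all. The median log2 fold change of the axon guidance genes was 0.35 at T2 over T1, 0.07 at T3 over T2 and 0.51 at T3 over T1, beside 0.08, -0.08 and 0.01 for all genes tested. The libraries of the stages did not overlap for 88, 81 and 86 of the 98 genes in these comparisons, where 73.8%, 74.6% and 79.4% of all genes tested did not overlap. The comparisons share libraries and are not independent of each other.

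Called in at least 1 comparison were 44 genes, and 55 were called in none. The commonest course, held by 23 genes, was a call higher at both later stages than at T1 and none between T3 and T2 (*dcc*, *robo2*, *robo4*, *slit1b*, *slit3*, *nrp2a*, *plxna1a*, *plxnb2b*, *sema3bl*, *sema3c*, *sema3d*, *sema3e*, *sema3ga*, *sema4d*, *sema5a*, *sema5ba*, *sema6a*, *epha3*, *epha4b*, *epha4l*, *epha5*, *ephb1* and *ephb2b*). Their levels were not all steady after T2. Under the fold threshold, *dcc* (0.96) and *robo2* (0.93) rose further from T2 to T3, and *sema3d* (-0.37) fell. Another 8 were called higher at T3 against T1 alone (*ntn1b*, *ntn2*, *ntng1a*, *ntng2a*, *slit1a*, *sema3fa*, *efna3a* and *ephb2a*), and 3 at T2 against T1 alone (*plxnb1a*, *sema3ab* and *sema4ba*). *plxna4* was called higher in all 3 comparisons, and *unc5a* in both that involve T3. The falling genes were *efnb2b*, *epha2b*, *nrp2b* and *sema4bb* at both later stages, and *efnb2a*, *epha4a*, *ephb4a* and *unc5b* at T3 against T1 alone.

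**Figure D2:**
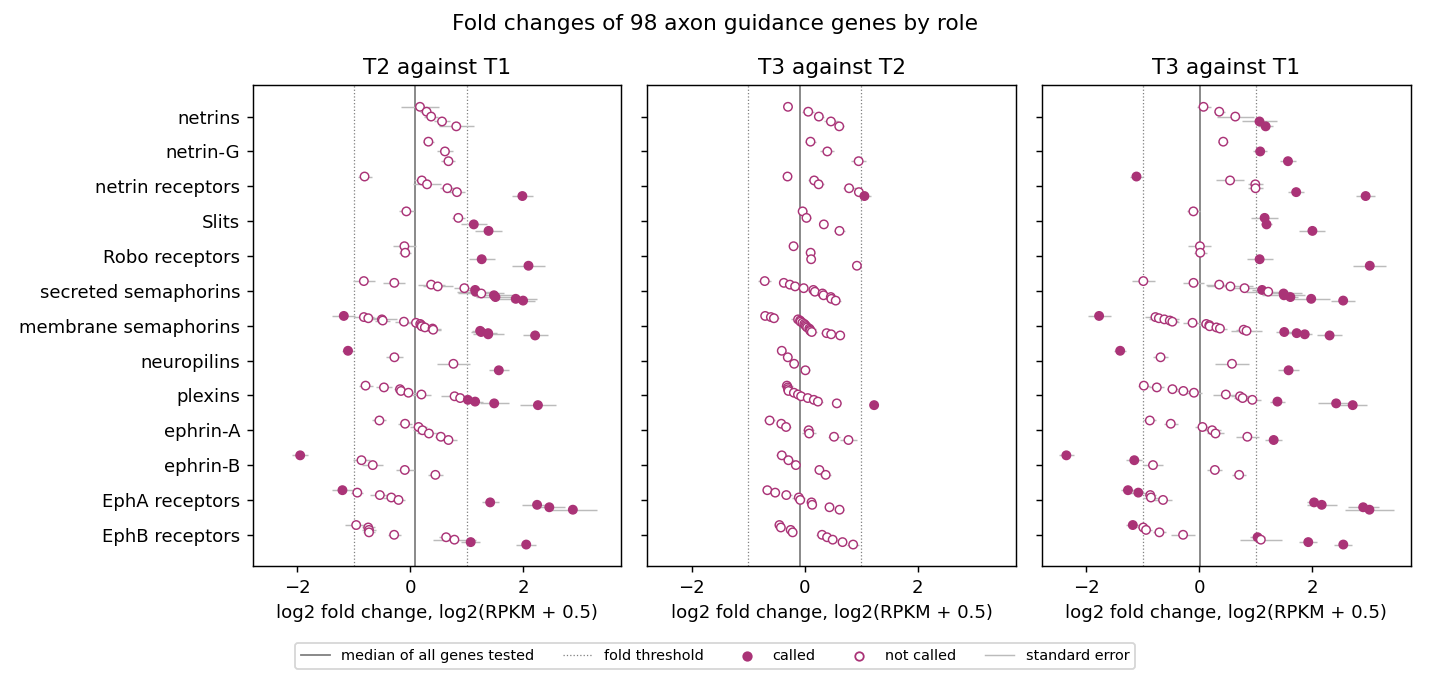
Log2 fold change with its SE (grey bars, horizontal axis) of each of the 98 tested genes, by role group, in each comparison, the later stage over the earlier. Filled points passed the test and the fold threshold (dotted lines) and open points did not; the grey line is the median of all genes tested. Called points number 31, 2 and 41.

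These counts depend on the scale and on single libraries. RPKM takes the library total as fixed; centring each library on its median gene moved the median of all genes to -0.25 for T2 against T1 and -0.34 for T3 against T1, and the members then split into 18 higher and 15 lower at T2 against T1, and 24 higher and 21 lower at T3 against T1. Quantile normalization gave 20 and 7, and 26 and 13. No gene called on RPKM changed its direction under any setting tried. Calls need a log2 fold change above 1 in size and these shifts were smaller, so a change of direction was hardly possible. Without T2 replicate 1 or T2 replicate 2, 14 genes were called higher at T2 than at T1, without T1 replicate 1 the genes called lower were 8, and without T1 replicate 2 they were 2. Of the 31 genes called between T2 and T1, 15 were called whichever library was left out, and 30 of the 41 between T3 and T1 were. The T1 difference also ran along the calls: 23 of the 27 genes called higher at T2 (85.2%) were higher in T1 replicate 1 than in T1 replicate 2, where 74.9% of all genes called higher were. Of the 4 called lower 0 were, where 28.6% of all genes called lower were. What sets the T1 libraries apart, and its part in the calls, was not tested.

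Among the netrin genes, the receptor *dcc* changed most. *dcc* (GRCz11 chr5:31747-201600) encodes the receptor through which netrin attracts commissural axons. It lay at 0.866 and 0.551 RPKM at T1, 4.39 and 4.11 at T2 and then 8.75 and 8.72 at T3, so each stage lay above the one before. The log2 fold change was 1.99 ± 0.19 (SE, adjusted *p* = 0.00309) for T2 against T1, 2.95 ± 0.17 (adjusted *p* = 0.00054) for T3 against T1, and 0.96 ± 0.07 for T3 against T2, just under the fold threshold. Its values stayed called between 1.80 and 2.17 at T2 whichever library was left out.

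The ligands moved less. *ntn1a*, one of the zebrafish copies of netrin-1, had 6.27 and 5.61 RPKM at T1, 7.64 and 8.01 at T2 and then 6.08 and 6.50 at T3, and was called in no comparison. Its copy *ntn1b* had 2.51 and 2.22 RPKM at T1, 3.62 and 3.84 at T2 and then 5.77 and 6.17 at T3, called higher at T3 than at T1 by 1.18 ± 0.13 (adjusted *p* = 0.00236). With quantile normalization or centring on the median gene, 0 of the 5 netrins were called at T3 against T1, where limma on the RPKM called 2, *ntn1b* and *ntn2*. The exon length that divides the reads of *ntn1a* counts a further copy on another sequence (49.9% of it), so the levels of *ntn1a* and *ntn1b* cannot be ranked, whereas a change between stages is measured within 1 gene. *ntn2* was called higher at T3 (3.77 and 4.26 RPKM, against 2.41 and 1.09 at T1; 1.07 ± 0.31, adjusted *p* = 0.0408), a call that was lost when T1 replicate 2 or either of the T3 libraries was left out, with an adjusted *p* of up to 0.141. The membrane-anchored netrin-G ligands, which bind other partners than DCC and UNC5, lay under 1 RPKM except *ntng1a* at T3 (1.14 and 1.26 RPKM, against 0.0299 and 0.115 at T1; 1.57 ± 0.14, adjusted *p* = 0.00144). *ntng2a* was also called at T3 against T1 (1.08 ± 0.13), with 0.853 and 0.708 RPKM against 0.124 and 0.0865, and lost the call without T3 replicate 1.

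Of the UNC5 receptors, which turn the response to netrin into repulsion, *unc5a* and *unc5b* went opposite ways. *unc5a* (chr14:51163588-51619528) had 0.206 and 0.167 RPKM at T1, 0.580 and 0.588 at T2 and then 1.68 and 1.83 at T3. It was called higher at T3 than at T2 (1.06 ± 0.11, adjusted *p* = 0.000678) and than at T1 (1.72 ± 0.14, adjusted *p* = 0.000994), which made it 1 of the 2 members called between the later stages. *unc5b* (chr13:29128008-29225696), whose product in zebrafish is also found on arteries, had 15.3 and 17.4 RPKM at T1, 9.25 and 8.99 at T2 and then 7.19 and 7.41 at T3, and was called lower at T3 than at T1 (-1.11 ± 0.12, adjusted *p* = 0.00222). *unc5c* had the highest RPKM of these receptors at T3, with 18.3 and 15.2 RPKM, against 14.4 and 8.81 at T1, not called. With a pseudocount of 1 in place of 0.5, *unc5a* was no longer called between T3 and T2, nor was it when T3 replicate 2 was left out of a fit over all stages, which then called 0 members.

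Among the Slits, which repel axons at the midline through Robo receptors, 3 of 4 were called higher at T3 than at T1, and 1 of 4 (*slit1b*) with centring on the median gene. *slit1a* had 6.46 and 6.45 RPKM at T1, 11.7 and 12.4 at T2 and then 15.3 and 15.5 at T3, higher by 1.19 ± 0.10 (adjusted *p* = 0.00122) at T3 against T1. *slit1b* (chr22:34843274-34937591) had 0.493 and 0.168 RPKM at T1, 1.61 and 1.65 at T2 and then 2.82 and 2.72 at T3, higher by 1.39 ± 0.24 (adjusted *p* = 0.0122) at T2 and by 2.00 ± 0.23 (adjusted *p* = 0.0026) at T3. *slit3* was higher by 1.13 ± 0.23 at T2 (5.38 and 5.05 RPKM, against 2.73 and 1.62 at T1) and by 1.16 ± 0.23 at T3. *slit2*, in contrast, stayed between 5.74 and 6.48 RPKM in the 6 libraries. The T2 calls of *slit1b* and *slit3* were lost when either of the T2 libraries was left out (adjusted *p* of up to 0.0616 and 0.0982), that of *slit3* also without T1 replicate 2. The T3 call of *slit3* was lost without T1 replicate 2 (0.86) or T3 replicate 2, with an adjusted *p* of up to 0.0658.

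Of the 4 Robo receptors, *robo2* and *robo4* were called higher at both later stages than at T1; with centring on the median gene *robo4* was not called at either. *robo2* (chr15:38372130-39230643), which retinal axons need for their path in zebrafish, had the largest log2 fold change of the 98 genes at T3 against T1, next to *epha3* at 3.01. It lay at 1.52 and 0.638 RPKM at T1, 5.80 and 6.15 at T2 and then 11.8 and 11.8 at T3, higher by 2.09 ± 0.30 (adjusted *p* = 0.00767) at T2 and by 3.02 ± 0.29 (adjusted *p* = 0.00171) at T3 against T1. *robo4*, known chiefly from endothelium, had 5.81 and 3.61 RPKM at T1, 12.2 and 11.3 at T2 and then 10.5 and 9.92 at T3, called at T2 (1.27 ± 0.23, adjusted *p* = 0.0145) and at T3 (1.07 ± 0.23, adjusted *p* = 0.0164). *robo3*, the most abundant of the family, lay at 25.2 and 37.2 RPKM at T1, 29.3 and 27.8 at T2 and then 31.2 and 30.7 at T3, and *robo1* at 10.5 to 12.1 RPKM throughout; neither was called. The calls of *robo4* were lost without T1 replicate 2 or when either library of the later stage was left out, with an adjusted *p* of up to 0.0582 at T2 and 0.0632 at T3. Of 10 endothelial markers, 7 were called higher at T2 than at T1, against 12.8% of all genes tested, while *etv2* (-0.82) and *tal1* (-0.10) did not rise. The summed level of these markers was 50.7 and 48.9 RPKM at T2, against 26.2 and 15.1 at T1. Whether they have a part in the change of *robo4* was not tested.

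**Figure D3:**
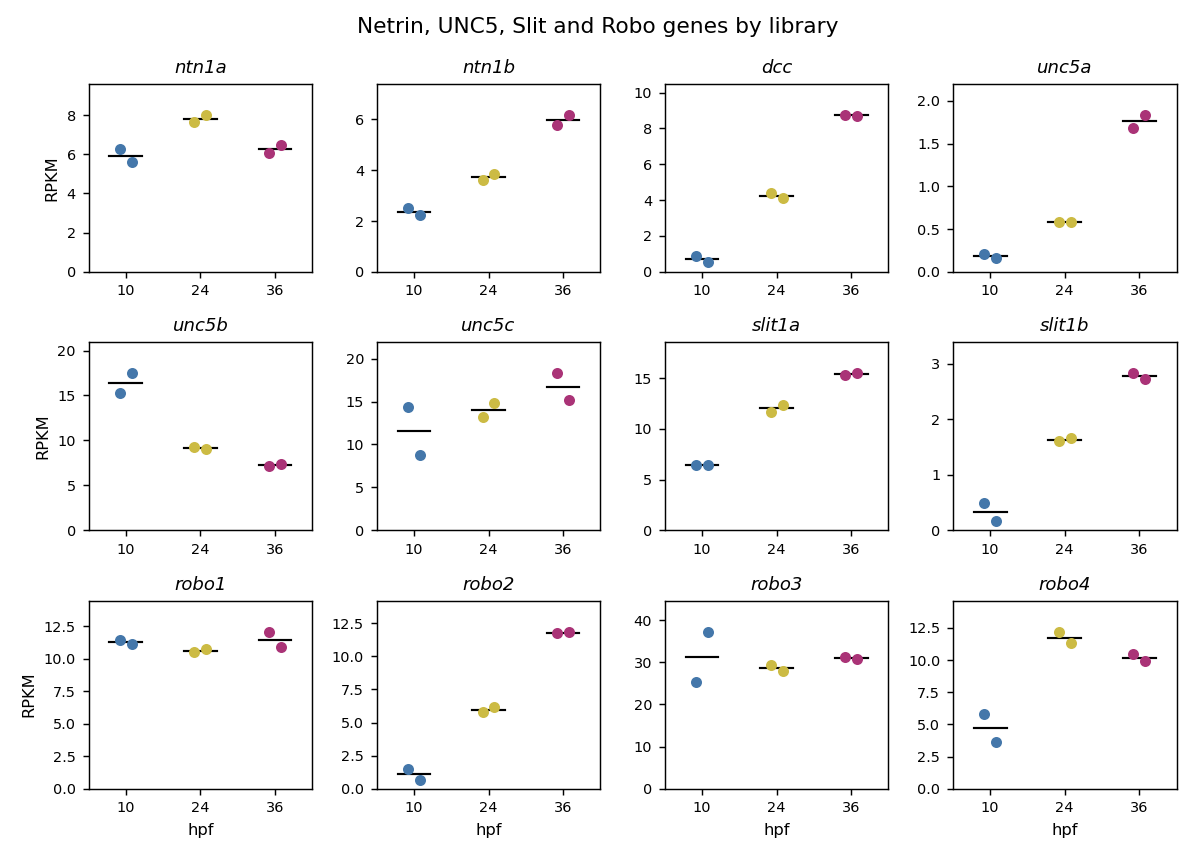
RPKM (vertical axes, each starting at 0) of netrin, DCC, UNC5, Slit and Robo genes at 10, 24 and 36 hpf; points are libraries and bars the mean of the 2 libraries of a stage. *dcc* and *robo2* step up at each stage, to 8.72 RPKM or more and to 11.8 RPKM at 36 hpf, while *robo1* stays between 10.5 and 12.1 RPKM.

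The secreted semaphorins, class 3, were the role group with most members called higher between T1 and T2: 6 of 12 and 0 lower, with a median log2 fold change of 1.16. Between T3 and T2 none of the 12 was called by limma, and 0 with voom. Their changes on RPKM, -0.71 to 0.55, lay under the fold threshold, so an unadjusted *p* could not add a call. At T3 against T1 again 6 were higher and 0 lower, and with voom 1 was lower (*sema3fb*). The largest fall on RPKM, -0.99, lay under the fold threshold too, so 0 were lower at an unadjusted *p* as well. With centring on the median gene the counts at T2 were 4 higher and 1 lower. *sema3bl* (chr8:26522013-26573963) had 0.609 and 0.285 RPKM at T1, 3.28 and 3.18 at T2 and then 5.29 and 4.65 at T3, higher by 2.00 ± 0.22 (adjusted *p* = 0.00415) at T2 and by 2.55 ± 0.22 (adjusted *p* = 0.00118) at T3. *sema3ga* followed with 1.13 and 0.336 RPKM at T1, 2.70 and 2.97 at T2 and then 4.13 and 4.12 at T3 (1.98 ± 0.34 at T3 against T1, adjusted *p* = 0.00837). *sema3c* was also called at both later stages, by 1.15 ± 0.15 at T2 and 1.61 ± 0.13 at T3. At T2 the call of *sema3ga* was lost when either of the T2 libraries was left out (adjusted *p* of up to 0.108) and that of *sema3c* without T2 replicate 1 (0.0524).

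*sema3ab*, *sema3d* and *sema3e* are neighbours on chromosome 18, all on the plus strand between 9171778 and 9578813, and all were called higher at T2. *sema3d* had 1.93 and 0.636 RPKM at T1, 5.94 and 5.22 at T2 and then 4.04 and 4.37 at T3 (1.87 ± 0.38 for T2 against T1, adjusted *p* = 0.0193). *sema3ab* had 2.198 and 0.737 RPKM at T1, 5.004 and 4.24 at T2 and then 3.58 and 3.96 at T3. *sema3e*, whose product binds plexin D1 without a neuropilin, had 1.05 and 0.304 RPKM at T1, 1.90 and 2.09 at T2 and then 2.60 and 2.68 at T3. In each of them T1 replicate 1 was well above T1 replicate 2, and each lost its T2 call when either of the T2 libraries was left out. *sema3ab* (1.48 ± 0.39 for T2 against T1, adjusted *p* = 0.0375) and *sema3e* (1.16 ± 0.34, adjusted *p* = 0.0493) also lost it without T1 replicate 2, at 0.92 and 0.69. That of *sema3e* was lost as well with a pseudocount of 0.1 or 1, quantile normalization, median centring or no filter on low values. The T3 call of *sema3d* was lost when T1 replicate 2 or either of the T3 libraries was left out (adjusted *p* of up to 0.0862), and that of *sema3e* when either of the T3 libraries was left out (up to 0.0607). Not called were *sema3aa* (13.5 and 14.3 RPKM at T3, 8.44 and 13.7 at T1), whose exon length also counts exons on another sequence, and *sema3gb* (15.3 and 16.2 RPKM at T3, 11.6 and 6.66 at T1).

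Of the 18 membrane semaphorins, classes 4 to 7, 5 were called higher and 1 lower at T2 than at T1, and 4 higher and 1 lower at T3 than at T1; centring on the median gene gave 3 and 3, and 4 and 3. *sema5ba* (chr9:37480189-37749967) was the riser with the largest change, with 1.09 and 0.597 RPKM at T1, 5.49 and 5.75 at T2 and then 6.05 and 6.03 at T3 (2.21 ± 0.22 for T2 against T1, adjusted *p* = 0.00339). *sema6a* had 2.40 and 2.02 RPKM at T1, 5.82 and 5.95 at T2 and then 9.28 and 9.47 at T3 (1.87 ± 0.13 for T3 against T1, adjusted *p* = 0.000778). *sema4d*, the plexin B1 ligand, had 0.825 and 0.863 RPKM at T1, 2.81 and 3.19 at T2 and then 3.14 and 3.503 at T3 (1.51 ± 0.14 for T3 against T1). *sema5a* had 333 and 431 reads at T3, against 32 reads and 1 read at T1, and was called at both later stages. The gene that fell was *sema4bb* (chr7:30240925-30264255), with 11.4 and 16.6 RPKM at T1, 6.01 and 5.68 at T2 and then 3.82 and 3.57 at T3 (-1.77 ± 0.20 for T3 against T1, adjusted *p* = 0.0026). *sema6dl* lay at 14.5 to 25.1 RPKM and was not called. The exon lengths of *sema4bb* and *sema6a* count exons on other sequences, so the group was not ranked by level.

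The receptors of the semaphorins changed unevenly. Among plexins, 4 of 12 were called higher at T2 than at T1 (*plxna1a*, *plxna4*, *plxnb1a* and *plxnb2b*) and 3 at T3 than at T1. By limma 0 were lower in either comparison, and with voom 0 at T2 and 1 (*plxna3*) at T3. The largest falls on RPKM, -0.79 at T2 and -0.98 at T3, lay under the fold threshold, so 0 were lower at an unadjusted *p* as well. Median centring called 2 higher and 1 lower at T2 and 3 higher and 2 lower at T3. *plxna4* (chr4:15217927-15441751) was the only member called higher at every step, with 1.25 and 0.599 RPKM at T1, 3.40 and 3.39 at T2 and then 8.50 and 8.77 at T3 (1.49 ± 0.26 for T2 against T1, 1.23 ± 0.07 for T3 against T2, adjusted *p* = 0.00011). Its product is a plexin A with which neuropilins receive class 3 semaphorins in sensory and sympathetic neurons of mice. The T2 calls of *plxnb1a* (down to 0.85) and *plxnb2b* were lost when either of the T2 libraries was left out, that of *plxnb1a* also without T1 replicate 2, so that of the 4 plexins only *plxna1a* was called whichever library was left out. The T2 call of *plxna4* was lost when either of the T2 libraries was left out (adjusted *p* of up to 0.0623), and its call for T3 against T2 was lost when 1 T2 or T3 library was left out of a fit over all stages, which called 0 to 2 members. *plxna1a* (chr23:34321289-34759827) had 1.15 and 0.393 RPKM at T1, 5.34 and 5.29 at T2 and then 5.68 and 6.36 at T3 (2.26 ± 0.31 for T2 against T1, adjusted *p* = 0.00728). *plxna3*, with 22.7 and 25.5 RPKM at T1, 14.5 and 12.97 at T2 and then 11.99 and 11.93 at T3, differed by -0.98 ± 0.11 at T3 against T1 and stayed just under the fold threshold, and *plxnd1*, the receptor of *sema3e*, was not called (2.60 and 3.09 RPKM at T3, 2.42 and 1.47 at T1).

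The co-receptor genes *nrp2a* and *nrp2b* changed in opposite directions. *nrp2a* had 2.56 and 1.83 RPKM at T1, 7.45 and 7.39 at T2 and then 7.08 and 7.94 at T3 (1.57 ± 0.18 for T2 against T1, adjusted *p* = 0.00458). *nrp2b* (chr9:14367578-14504971) had 24.6 and 24.6 RPKM at T1, 11.5 and 10.9 at T2 and then 8.60 and 9.48 at T3 (-1.10 ± 0.10 for T2 against T1, adjusted *p* = 0.00302). *nrp2b* was the neuropilin with the highest RPKM at T1, while at T3 *nrp1a*, with 10.4 and 10.7 RPKM, was. Neither *nrp1a* (-0.68 ± 0.14 for T3 against T1) nor *nrp1b* (0.58 ± 0.29) was called.

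**Figure D4:**
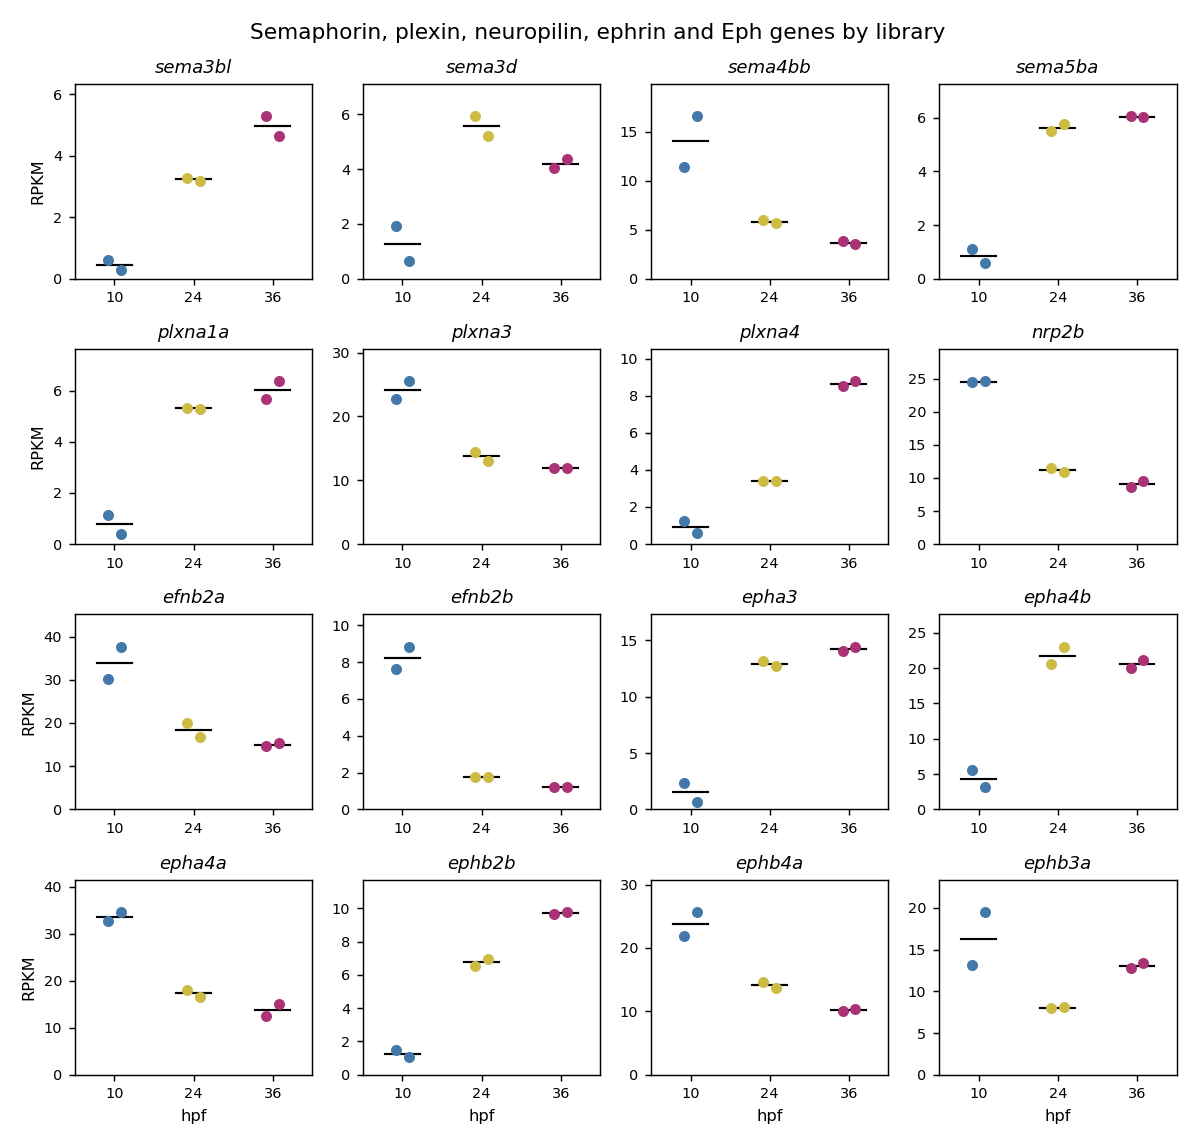
RPKM (vertical axes, each starting at 0) of semaphorin, plexin, neuropilin, ephrin and Eph receptor genes at 10, 24 and 36 hpf; points are libraries and bars the mean of the 2 libraries of a stage. *epha3* and *epha4b* gain between 10 and 24 hpf, whereas *nrp2b*, *efnb2b* and *sema4bb* lose over the same interval, *sema4bb* to 3.82 and 3.57 RPKM at 36 hpf.

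The ephrin-B ligands are transmembrane proteins that can also signal into the cell that carries them. They were the group with no member called higher at T2 or T3 than at T1 (0 of 5 by limma and 0 with voom). The largest rises of the group, 0.45 at T2 and 0.71 at T3, lay under the fold threshold. With that threshold kept, the count called higher at an unadjusted *p* under 0.05 could therefore only be 0. *efnb2b* (chr1:7634516-7659569) had 7.62 and 8.84 RPKM at T1, 1.75 and 1.77 at T2 and then 1.19 and 1.23 at T3, the largest fall of the 98 genes (-1.95 ± 0.14 for T2 against T1, adjusted *p* = 0.00177, and -2.35 ± 0.14 for T3 against T1). *efnb2a*, which marks arteries and the posterior part of somites in zebrafish, had 30.3 and 37.6 RPKM at T1, 20.0 and 16.9 at T2 and then 14.6 and 15.4 at T3, called lower at T3 than at T1 (-1.15 ± 0.14, adjusted *p* = 0.00319), a call that was lost without T1 replicate 2 at -0.99. *efnb1*, at 16.7 and 17.4 RPKM at T3 and 25.6 and 36.0 at T1, was not called, nor were *efnb3a* and *efnb3b*. Under the fold threshold *efnb3b* rose, with 12.7 and 10.6 RPKM at T1, 16.4 and 15.6 at T2 and then 19.2 and 19.4 at T3 (0.71 ± 0.13 for T3 against T1, adjusted *p* = 0.00965). The GPI-anchored ephrin-A ligands gave few calls: 0 of 7 were called at T2 by limma, and 1 with voom (*efna3a*). On RPKM their changes at T2, -0.54 to 0.68, lay under the fold threshold, so 0 were called at an unadjusted *p* as well. At T3 against T1 *efna3a* alone was called. *efna3a* had 2 reads in each T1 library, 23 and 25 at T2 and then 90 and 64 at T3, and fell below the filter when a T3 library was left out. *efna1a* had the highest RPKM of the group, at 15.2 to 23.6.

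EphA receptors held the largest change by T2 and also falling genes: 4 of 9 tested were called higher and 1 lower at T2 than at T1, and 4 higher and 2 lower at T3 than at T1. *epha3* (chr9:16445093-16622556) had 2.34 and 0.674 RPKM at T1, 13.2 and 12.7 at T2 and then 14.0 and 14.4 at T3 (2.88 ± 0.42 for T2 against T1, adjusted *p* = 0.00835). *epha4l* (chr15:41948096-42039250) had 1.44 and 0.649 RPKM at T1, 7.79 and 7.69 at T2 and then 10.4 and 10.95 at T3 (2.90 ± 0.27 for T3 against T1, adjusted *p* = 0.00159). *epha5*, a receptor with graded expression in the visual system of vertebrates, had 0.742 and 0.781 RPKM at T1, 2.85 and 2.88 at T2 and then 4.66 and 4.68 at T3 (2.03 ± 0.13 for T3 against T1), and its T1 libraries were level. The fallers were *epha2b* (11.3 and 15.4 RPKM at T1, 5.66 and 5.32 at T2 and then 6.01 and 6.02 at T3) and *epha4a*, treated with its copy below. *epha2b* shares 36.2% of its exon length with a transcript of the opposite strand, and its calls were lost without T1 replicate 2, at -0.98 for T2 and -0.86 for T3. Centring on the median gene gave 4 higher and 2 lower at T2 and then 4 and 4 at T3.

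Among the 9 EphB receptors, 2 were called higher and 0 lower at T2 than at T1 by limma, and 1 lower with voom (*ephb3a*). The largest fall on RPKM, -0.95, lay under the fold threshold, so 0 were lower at an unadjusted *p* as well. Without that threshold *ephb3*, *ephb3a*, *ephb3b* and *ephb4a* were lower at an adjusted *p* under 0.05 by limma. Centring on the median gene called 1 higher and 4 lower at T2 against T1. At T3 against T1, limma called 3 higher and 1 lower. *ephb2b* (chr11:28218057-28424181) had 1.46 and 1.05 RPKM at T1, 6.53 and 6.98 at T2 and then 9.69 and 9.77 at T3 (2.55 ± 0.16 for T3 against T1, adjusted *p* = 0.000629). *ephb1* had 0.355 and 0.226 RPKM at T1, 1.16 and 1.15 at T2 and then 2.62 and 2.39 at T3 (1.93 ± 0.16 for T3 against T1). The T2 call of *ephb1* (1.07 ± 0.17) was lost without T1 replicate 2 or either of the T2 libraries, at down to 0.95. It was also lost with a pseudocount of 1, quantile normalization or median centring. *ephb4a*, the receptor of veins that pairs with ephrin-B2 of arteries, had 21.96 and 25.7 RPKM at T1, 14.7 and 13.6 at T2 and then 10.1 and 10.4 at T3, and was called lower at T3 than at T1 (-1.17 ± 0.12, adjusted *p* = 0.00202), as was its ligand gene *efnb2a*. *ephb3a* had its lowest values at T2, with 13.2 and 19.5 RPKM at T1, 7.97 and 8.09 at T2 and then 12.8 and 13.4 at T3; the difference of T3 against T2, 0.67 ± 0.07 (adjusted *p* = 0.000563), stayed under the fold threshold.

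Copies were paired by symbol, and whether a pair stems from the teleost genome duplication was not checked. *epha4a* and *epha4b* lie on the same chromosome, as do *sema3ga* and *sema3gb*. Members whose symbols differ only in a final a or b, *unc5a* and *unc5b* aside, form 25 pairs. In 18 of them the calls of the copies differed in at least 1 comparison, which includes pairs in which 1 copy stayed just under the fold threshold (*slit1a* at 0.85 and *efnb2a* at -0.86 for T2 against T1), and in 3 the calls were opposite (*epha4a* and *epha4b*, *nrp2a* and *nrp2b*, and *sema4ba* and *sema4bb*). Such shares were not computed for a and b pairs among all genes, so the counts of pairs here and below have no background beside them. *epha4a* had 32.6 and 34.6 RPKM at T1, 18.1 and 16.6 at T2 and then 12.6 and 15.0 at T3, against 5.58 and 3.12, 20.6 and 23.0, and 20.1 and 21.1 RPKM for *epha4b* at the same stages. *epha4a* thus made up 88.5% of their summed mean RPKM at 10 hpf, 44.3% at 24 hpf and 40.1% at 36 hpf. The log2 fold change for T3 against T1 was -1.26 ± 0.13 for *epha4a* and 2.17 ± 0.27 for *epha4b*. *sema4ba* had 5.75 and 5.62 RPKM at T2, against 2.58 and 1.33 at T1, called higher at T2 by 1.38 ± 0.27, where *sema4bb* was called lower (-1.17 ± 0.20); without T2 replicate 2 both calls were lost, that of *sema4ba* was also lost without T2 replicate 1 and that of *sema4bb* without T1 replicate 2 (-0.91). The opposite calls of the *epha4* and *nrp2* copies were kept whichever library was left out.

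In 6 of the 25 pairs the copy with the higher mean RPKM at T3 was not that of T1: besides *epha4a* and *epha4b*, and *sema4bb* and *sema4ba*, these were *sema5bb* and *sema5ba*, *sema3fb* and *sema3fa*, *sema4gb* and *sema4ga*, and *efna5a* and *efna5b*. Both *sema4gb* (0.0816 to 0.736 RPKM) and *sema4ga* (0.164 to 0.333 RPKM) lay under 1 RPKM in all 6 libraries. *sema5ba* made up 60.8% of its pair at T3 and 22.5% at T1, while *sema5bb*, the other copy, lay at 2.78 to 4.16 RPKM. *plxna1a* went the same way without overtaking *plxna1b* (10.5 to 13.8 RPKM in the 6 libraries), with 35.8% of the pair at T3 and 5.50% at T1. *nrp2a* was 45.4% of its pair at T3 and 8.19% at T1. At T3 against T1 both copies were called in the same direction for *slit1a* and *slit1b*, *ephb2a* and *ephb2b*, and *efnb2a* and *efnb2b*. Of these, *ephb2a* had only 0.726 and 0.665 RPKM at T3, against 0.122 and 0.0470 at T1 (1.03 ± 0.13). Its call was lost without T1 replicate 2 or T3 replicate 1, and with a pseudocount of 1, quantile normalization or median centring. The copies of *sema4b* were level at T3, with 4.07 and 3.45 RPKM for *sema4ba* and 3.82 and 3.57 RPKM for *sema4bb*. The exon lengths of *sema4bb*, *sema3fb*, *sema4ga* and *efna5b* count exons on a second sequence, so which copy is the more abundant is uncertain in these 4 of the 6 pairs. Whether the copies of a pair differ in their change was not tested, and reads that match both copies could have been split between them.

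**Figure D5:**
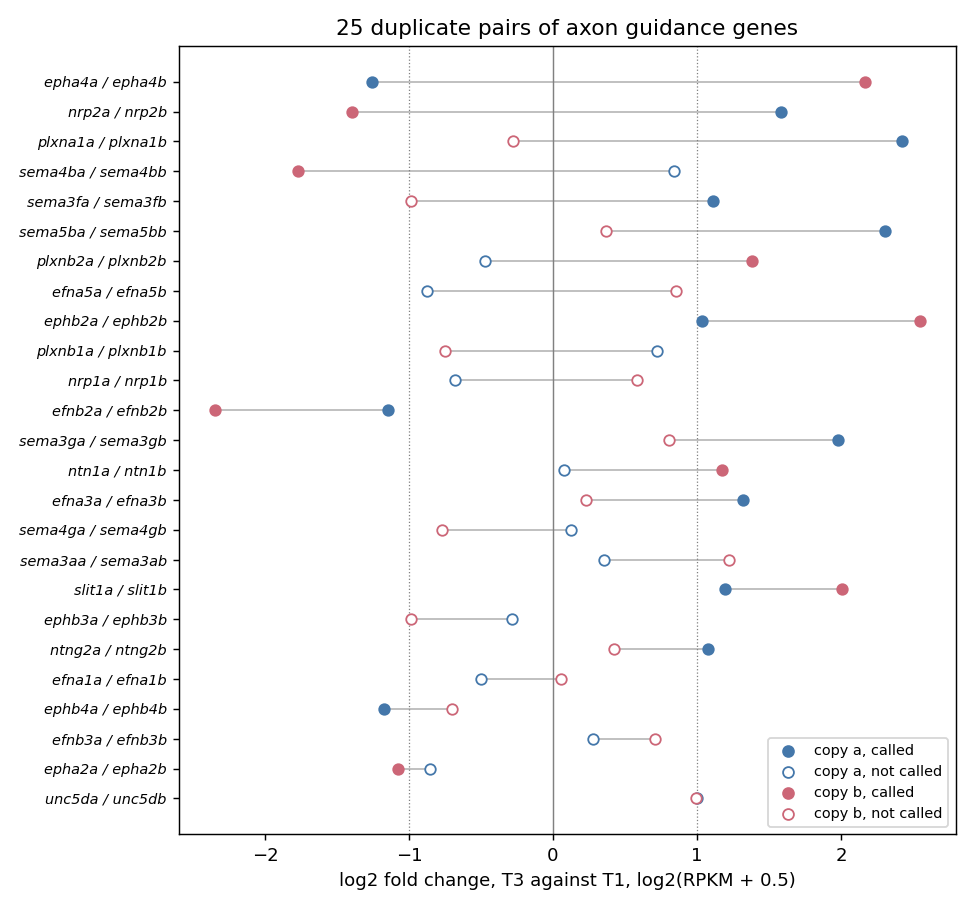
Log2 fold change for T3 against T1 (horizontal axis) of both copies of 25 duplicate pairs, joined by a line and ordered by the distance between the copies; filled points were called. *epha4a* and *epha4b* lie farthest apart, at -1.26 and 2.17, and *unc5da* and *unc5db* lie closest together.

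Several members are neighbours in the genome. *epha4a* and *epha4b* lie on chromosome 2 on opposite strands, 158.0 kb apart, and changed in opposite directions. *robo1* and *robo2* lie 47.0 kb apart on chromosome 15, and *robo3* and *robo4* 19.8 kb apart on chromosome 10; in both pairs the neighbours are on opposite strands and only the second was called. *sema3b* and *sema3bl* lie 9.87 kb apart on chromosome 8, and of them *sema3bl* was called while *sema3b* stayed between 3.36 and 5.15 RPKM. By contrast *ephb3* and *ephb3b*, 21.5 kb apart on chromosome 22 and on opposite strands, kept a ratio of 1.92 to 2.15 in all 6 libraries. *ephb3* fell short of the threshold with -0.94 ± 0.10 and *ephb3b* with -0.99 ± 0.11 for T3 against T1. *ephb3* shares 36.6% of its exon length with a transcript of the opposite strand.

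Other guidance genes were read from lists of cell-surface cues outside these families and of intracellular effectors. Of 41 other surface cues, 14 were called higher and 3 lower at T2 than at T1, 7 higher and 1 lower at T3 than at T2, and 19 higher and 5 lower at T3 than at T1. These were 41.5%, 19.5% and 58.5% of the list, against 16.3%, 6.14% and 25.9% of all genes tested. The largest gains by T3 included 2 adhesion molecules of axons: *chl1b* had 0.990 and 0.410 RPKM at T1, 8.67 and 8.68 at T2 and then 12.2 and 12.2 at T3, and *nrcama* 0.396 and 0.559 at T1, 3.61 and 3.76 at T2 and then 8.88 and 9.44 at T3. The adhesion molecule *alcamb* went the other way and was called lower in all 3 comparisons, with 356.0 and 482.3 RPKM at T1, 103.4 and 93.7 at T2 and then 48.4 and 48.6 at T3, and *cxcl12a*, *cxcr4a*, *flrt3* and *ptk7a* were the other 4 called lower at T3 than at T1. Neither *alcama* nor *nrcamb* was called. In this list *islr2*, *nell2b*, *dscamb*, *nrcama* and *dscama* were called higher at T2 than at T1 and again between T3 and T2, the latter by 1.21 (*dscama*) to 1.48 (*islr2*). *nell2a* (1.27) and *flrt1a* (1.14) were called higher between T3 and T2 without a call at T2 against T1. Of 59 effectors, 10 were called higher and 1 lower at T2 than at T1, and 6 higher at T3 than at T2. At T3 against T1, 14 were called higher and 3 lower. The called effectors made up 18.6%, 10.2% and 28.8% of the list, against 16.3%, 6.14% and 25.9% of all genes tested. At T2 against T1 and at T3 against T1 the list thus lay near the share of all genes. The effectors called higher included *dpysl3*, a collapsin response mediator that acts downstream of semaphorins, and its relative *crmp1*. *dpysl3* had 1.56 and 0.598 RPKM at T1, 8.14 and 8.49 at T2 and then 24.3 and 24.2 at T3 (4.04 for T3 against T1). *crmp1* had 0.507 and 0.399, 1.59 and 1.36, and 4.81 and 4.45 RPKM at the 3 stages. Called lower were *pak1* at T2 against T1 (-1.16), and *arhgef12a* (-1.09), *farp2* (-1.07) and *farp1* (-1.05) at T3 against T1. Between T3 and T2, 9 of 17 neuron markers were called higher as well, against 4.03% of all genes tested. The part of these markers in the changes of the 2 lists was not tested.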

How the data were processed

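The deposited values were RPKM, which the authors computed per gene from reads aligned to GRCz11 with STAR and counted with featureCounts; no source used here gives the strand setting. Whole reads were recovered in 100% of values (tolerance 0.01 read) from the RPKM and the deposited exon length, and 3 reads in a gene of 1 kb equal 0.0579 to 0.0688 RPKM. For 25 of the 99 genes (5840 of 30111) the exon length counts exons on more than 1 sequence of the assembly, so that levels of these genes cannot be ranked against others. Exon bases shared with another feature were found in 11.

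From the RPKM, mRNA genes (27018, lncRNA genes left out) with at least 0.1 RPKM in 2 of the 4 libraries compared were tested on log2(RPKM + 0.5) with limma 3.58.1 (R 4.3.3, empirical Bayes with trend and robust), and the script was tested on simulated data. Genes were named by a rule: in each role group and comparison the 3 called genes with the largest change above 1 RPKM, called genes that moved against their group, the most abundant gene of a group at each stage, duplicates with differing calls, and the largest changes of the other lists; genes outside it are named as members of small counts or neighbours, chosen after their values were seen. The members and lists were chosen with earlier results of these data known. Columns of the lncRNA table were used only to set lncRNA genes aside. Alternatives were the pseudocount, filter, scaling, fold threshold, moderation, voom, a replicate block, and leaving out libraries.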

Additional observations from a re-analysis of the deposited data

How the results depend on the processing

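No called gene changed direction under any alternative, for which calls above a log2 fold change of 1 in size left little room. All 106 calls of named genes were kept with voom on recovered reads, all 6 libraries in the fit and the replicate block. Median centring lost 19 of these calls, a pseudocount of 1 lost 18 and quantile normalization lost 15. For T2 against T1, 4 genes were called lower: without the fold threshold 19, with quantile normalization 7, with median centring 15 and with voom 7. For T3 against T2, 2 were called higher and 0 lower: without the fold threshold 30 and 24, and 7 higher with a pseudocount of 0.1, 1 with a pseudocount of 1 and 7 with voom. For T3 against T1, 8 were called lower: without the fold threshold 26, with a pseudocount of 0.1 13, with quantile normalization 13, with median centring 21 and with voom 13. Leaving out 1 library gave 14 to 32 higher and 2 to 8 lower for T2 against T1, 0 to 3 higher and 0 lower for T3 against T2, and 26 to 40 higher and 7 to 12 lower for T3 against T1; a stage left with 1 library was assumed to vary like the other. The cause of these shifts was not tested, other than that dropping the threshold or a library changes what the test asks for.

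Replicate numbers only name the libraries: deviations of libraries with the same number correlated across genes at 0.08 (T1 and T2), 0.005 (T2 and T3) and -0.01 (T1 and T3). With the replicate block, 28 genes were higher and 4 lower at T2 than at T1, 2 and 0 at T3 than at T2, and 35 and 8 at T3 than at T1. With 2 libraries per stage, a gene that was not called is not shown to be unchanged.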
